A study of Mus musculus with 24 samples.

Results

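The 10 genes described here mark the stem and progenitor cells at the base of the intestinal crypt or are direct targets of Wnt signalling in the gut. They are Lgr5, Ascl2, Smoc2, Axin2, Sox9, Ephb2, Ephb3, Cd44, Lrig1 and Myc, and they were followed across a curcumin and TNBS colitis experiment in mouse colon. Every probe set that the platform annotation gives to 1 of these symbols was taken. A probe set is the group of short probes that reports 1 transcript. That gave 21 probe sets for 9 of the 10 genes, 17 on the 430A array and 4 on the 430B array, out of 35041 probe sets with 1 gene symbol. No probe set named here carries Ephb2. A filter on low signals, described below, left 14 of the 21 for testing, and all 3 probe sets of Ascl2 were below it.

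Total RNA came from the whole colon of BALB/c mice, an inbred strain, aged 6 to 8 weeks. They were fed a standard chow or one containing 2% curcumin, a polyphenol from turmeric, starting 2 days ahead of an enema on day 0, and the colon was taken on day 7. The enema was a control or contained TNBS (trinitrobenzene sulfonic acid), which as a hapten provokes colitis. This gave 4 groups, standard diet with control enema, standard diet with TNBS enema, curcumin diet with control enema and curcumin diet with TNBS enema. Each has 3 numbered samples, and each sample was hybridised to 1 array of both types, 24 arrays in all. The labels name no transgene and no genotype, although the protocol mentions wild-type littermates. Each group's RNA was a pool of 3 mice. Whether its 3 samples are distinct pools is not in the labels, so p-values and confidence intervals here rest on the spread between these samples, which may be technical.

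In the crypt, Wnt ligands bind Frizzled and Lrp receptors, the protein beta-catenin escapes degradation and, together with TCF and LEF factors, switches on target genes. R-spondins bind Lgr receptors and strengthen the signal, and secreted inhibitors and the Axin2 feedback loop limit it. In the colon this keeps the stem cells at the crypt base dividing, and loss of the epithelium in colitis is repaired from the crypts. In whole colon RNA, fewer cells of a type and less RNA per cell cannot be told apart.

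None of the 14 tested probe sets passed the test in any comparison. Each diet gave a comparison of TNBS with control enema, and each enema a comparison of curcumin with standard diet. To these came the interaction of both and the averages over the other factor. The test was a linear model in limma fitted to all probe sets of 430A or of 430B, with 0.05 as the threshold for the adjusted p. Of the 98 tests, 14 probe sets in 7 comparisons, 0 passed, and 4 had an unadjusted p under 0.05. That is 4.08%, against 9.9% of the tests of all probe sets. The smallest adjusted p of a tested member probe set was 0.196, for Cd44 on 430B, where p-values were adjusted apart from those of 430A. Among all 27081 tested probe sets, the share past the threshold was 0.00739% for TNBS on the standard diet, 0.203% for TNBS on the curcumin diet, 0.00369% for curcumin with the control enema and 0.805% for curcumin with the TNBS enema. It was 0.0332% for the interaction, 0.0148% for TNBS averaged over both diets and 0.00369% for curcumin averaged over both enemas. The members' count of 0 is therefore read against a background in which at most 0.805% of probe sets passed.

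The 95% confidence intervals give the size of difference left possible by the spread between these samples. That spread may be technical, so the intervals need not cover the spread between mice. For 8 genes with a tested probe set, the main one, which is the one with the highest mean and from 430A where it was tested there, had a median standard error of 0.23 on the log2 scale. For 6 of the 8 genes the interval of the TNBS difference lay within 1 log2 unit of 0 on the standard diet, and for 6 of 8 on the curcumin diet. For curcumin against standard diet it was 7 of 8 with the control enema and 6 of 8 with the TNBS enema. For the interaction it was 5 of 8. A log2 unit is a doubling, so for most of these main probe sets a doubling lies outside the interval. Other tested probe sets of a gene can have wider or narrower intervals. For TNBS on the standard diet that of Sox9 1424950_at was wider, -1.32 to 0.24, and that of Lrig1 1449893_a_at narrower, -0.63 to 0.11. The counts therefore hold for the main probe sets and not for every probe set of a gene.

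**Figure D1:**
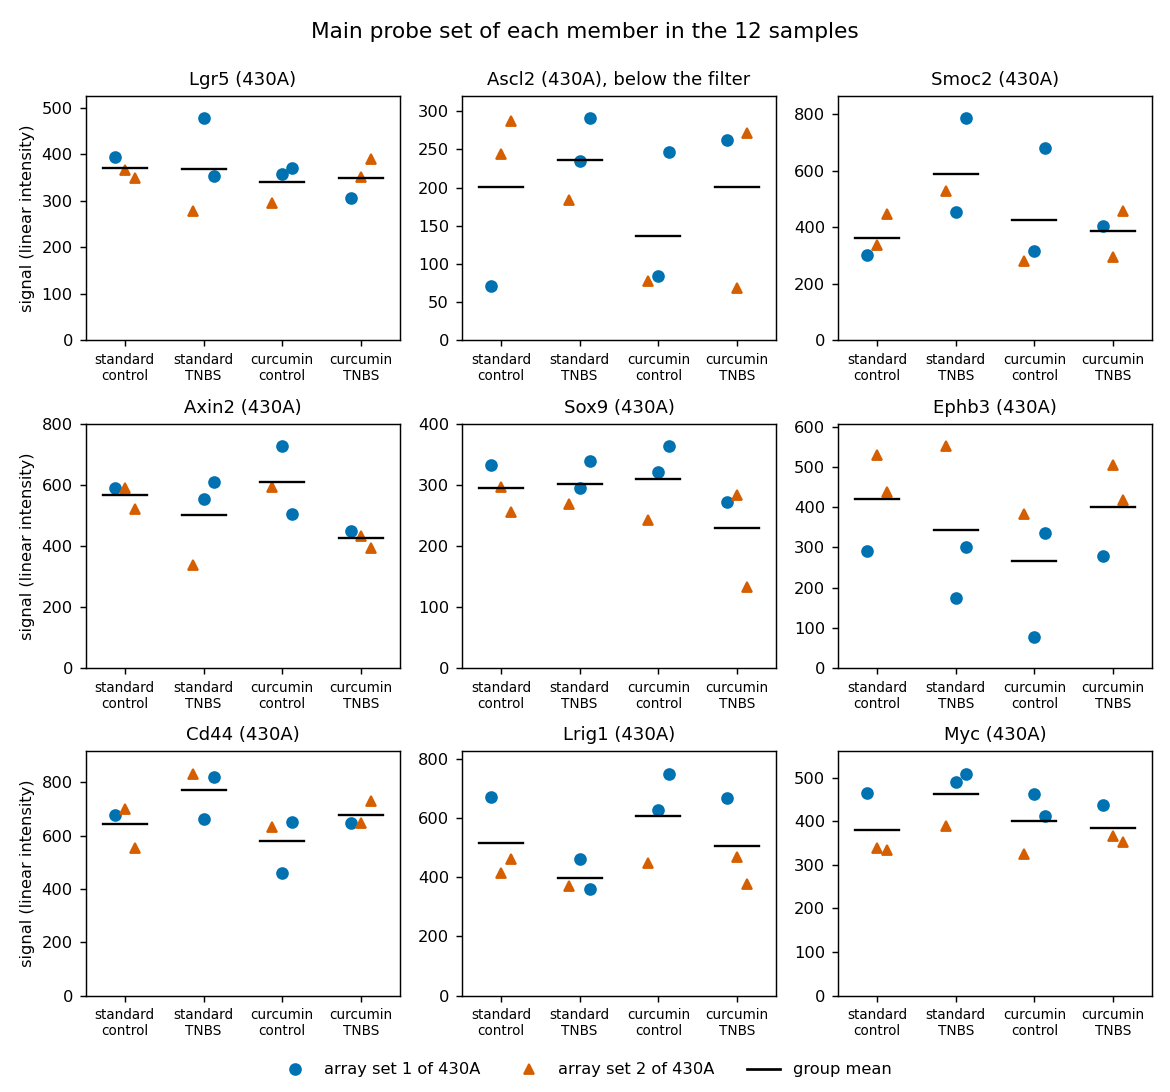
Signal (linear intensity, from 0) of the main probe set of the 9 members in the 12 samples, by diet and enema. Circles and triangles are the 2 sets of 430A arrays described below, and bars are group means of 3 samples. When the groups of a gene are ranked by mean, each overlaps the next. Smoc2 does not overlap between standard control and standard TNBS, nor Axin2 between curcumin control and curcumin TNBS.

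Lgr5, the receptor for R-spondins that defines the crypt base stem cell, had mean signals of 340 to 369 in the 4 groups. The signals were 394.5, 365.5 and 348.2 with standard diet and control enema, and 276.9, 477.2 and 352.2 with standard diet and TNBS. On the curcumin diet they were 294.3, 356.5 and 370.7 with the control enema and 305.3, 350.2 and 389.4 with TNBS. All groups overlap, and the lowest and the highest signal both came from standard diet with TNBS. The TNBS difference was -0.03 ± 0.19 (log2, SE, 95% interval -0.45 to 0.38) on the standard diet and 0.03 ± 0.19 (-0.39 to 0.45) on the curcumin diet. The limma adjusted p was 0.978 and 1. Curcumin against standard diet gave -0.12 ± 0.19 with the control enema and -0.05 ± 0.19 with TNBS. The second Lgr5 probe set, on 430B, ran from 174.4 to 519.0, both in the curcumin group with control enema, and correlated with the first at r = 0.08 over the 12 samples. Both of them gave TNBS differences near 0, the second one -0.08 ± 0.34 and 0.12 ± 0.34.

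Ascl2, a transcription factor that Wnt signalling switches on in the same stem cells, has 3 probe sets, whose means were below the filter, so they are not among the 14. The brightest, 1460514_s_at, gave 71.7, 243.5 and 286.6 with standard diet and control enema and 183.1, 234.6 and 290.7 with standard diet and TNBS. On the curcumin diet it gave 78.1, 84.6 and 247.2 with the control enema and 262.0, 68.3 and 272.1 with TNBS. The signals thus fall at 2 levels, 68.3 to 84.6 in 4 samples and 183.1 to 290.7 in the other 8, and the 4 low samples come from 3 of the 4 groups. The other Ascl2 probe sets ran from 13.4 to 236.3 and from 5.1 to 77.4, and do not part the same samples. In the fit without a filter none of the 3 passed in any comparison, and the smallest adjusted p was 0.591, for 1432018_at at -1.27 ± 0.52 for TNBS on the standard diet (unadjusted p = 0.0304). For 1460514_s_at the difference was 0.38 ± 0.58 and 0.48 ± 0.58 for TNBS on the standard and the curcumin diet in that fit (adjusted p = 0.954 and 1).

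The level of Ascl2 1460514_s_at went with transcripts of pancreas acinar cells, which make digestive enzymes and are not part of the colon wall. The summed signal of 7 acinar genes (Cpa1, Cela2a, Prss2, Ctrb1, Cel, Clps, Cela3b) was 1015 to 1571 in 4 samples and 14978 to 100492 in the other 8. The 4 samples with low acinar sums are the 4 with low Ascl2, namely standard control replicate 1, curcumin control replicates 1 and 2, and curcumin TNBS replicate 2. The correlation of the log2 values was 0.93 over the 12 samples, given as a description, and the 2 levels enter it. Among the 8 samples with high sums, curcumin TNBS replicate 3 had a sum of 14978 and an Ascl2 signal of 272.1. Standard TNBS replicate 1 had 84194 and 183.1, and standard TNBS replicate 3 had the highest of both, 100492 and 290.7. This split was chosen after the values were seen. Among all 22626 probe sets of 430A, 0.486% did not overlap between these 4 samples and the other 8, and 0.305% were lower in the 4. Of the members' 17 probe sets on 430A the non-overlapping ones were Ascl2 1460514_s_at and the main Smoc2 probe set. Within the 8 samples with high acinar sums, Ascl2 was 243.5 and 286.6 in standard control, 183.1, 234.6 and 290.7 in standard TNBS, 247.2 in curcumin control and 262.0 and 272.1 in curcumin TNBS. Among these samples, standard control, standard TNBS and curcumin TNBS overlap. The single curcumin control signal, 247.2, lay within the range of standard control and of standard TNBS. It lay below both curcumin TNBS signals, but a single sample gives no spread to compare. Whether pancreas RNA contributes to the signal of this probe set was not tested.

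**Figure D2:**
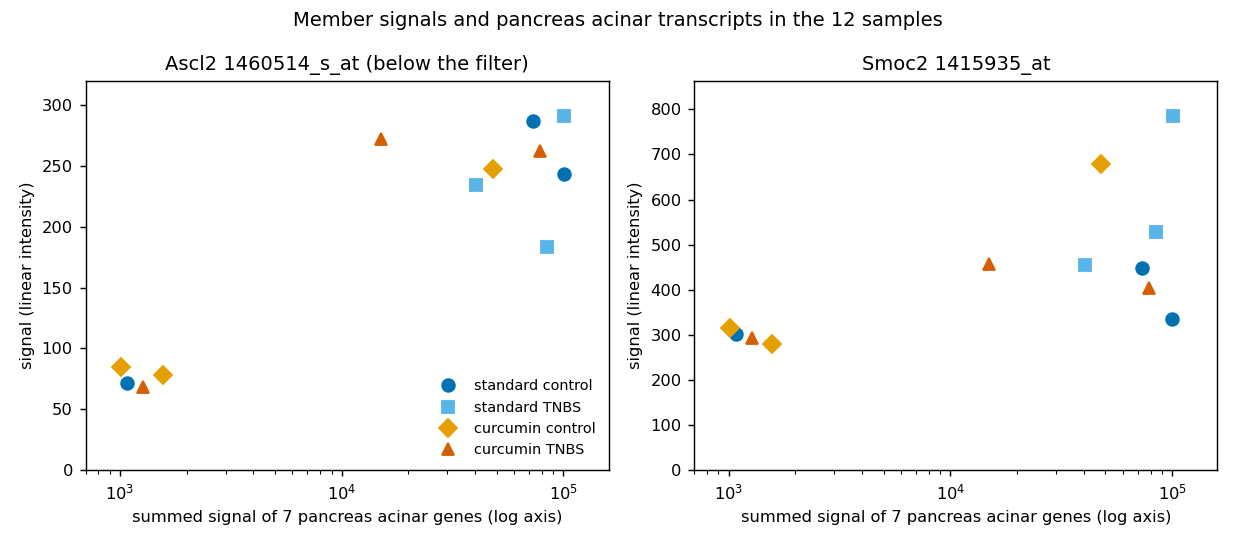
Signal (linear intensity, from 0) of Ascl2 1460514_s_at and Smoc2 1415935_at in the 12 samples against the summed signal of 7 pancreas acinar genes (log axis). The 4 samples with sums of 1015 to 1571 hold the 4 lowest signals of both, 68.3 to 84.6 for Ascl2 and 280.1 to 314.7 for Smoc2.

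Smoc2, a secreted matrix protein enriched in Lgr5 stem cells and also made by stromal cells, had the largest TNBS difference of the 8 tested genes on the standard diet. Signals were 302.9, 335.6 and 447.3 with the control enema and 527.2, 453.8 and 784.4 with TNBS, so all 3 TNBS samples lay above all 3 controls. The difference was 0.66 ± 0.31 (-0.02 to 1.34), a fold of 1.58, with an adjusted p of 0.563. Over all tested probe sets, 6.9% were higher without overlap in this comparison. On the curcumin diet the groups overlap, with 280.1, 314.7 and 679.7 after the control enema and 404.3, 292.9 and 457.4 after TNBS, a difference of -0.05 ± 0.31. Under TNBS the curcumin samples were -0.58 ± 0.31 from the standard diet (adjusted p = 0.575), and the groups overlap because curcumin replicate 3 at 457.4 was just above standard replicate 2 at 453.8. The interaction was -0.71 ± 0.44 (adjusted p = 0.617).

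Other values moved with Smoc2. The 4 samples with low acinar sums had 280.1 to 314.7, and the other 8 had 335.6 to 784.4, and no sample of the standard TNBS group is among the 4. Without these 4 samples the TNBS difference on the standard diet was 0.55 ± 0.25 (adjusted p = 0.484), and the 2 remaining controls still lay below the 3 TNBS samples. On the curcumin diet, where 1 control is then left and is assumed to vary like the other groups, it moved from -0.05 to -0.64 ± 0.33, and curcumin with the control enema from 0.13 to 0.79 ± 0.33 (adjusted p = 1 and 0.657). The summed signal of 10 fibroblast markers, among them Col1a1 and Dcn, was 25755 to 27366 in standard control and 28867 to 37263 in standard TNBS, without overlap, and the highest fibroblast sum and the highest Smoc2 signal came from the same sample. Such a sum is weighted to the brightest genes: taken singly, 6 of the 10 were above 0 in this comparison, the median was 0.05 (log2), and 0 passed. Of the 10, 2 were higher and 2 lower without overlap, against 6.9% and 7.56% of all tested probe sets. In the curcumin groups the fibroblast sums were 23159 to 27217 and 26663 to 30124. The part of either in the Smoc2 values was not tested. The genes most like Smoc2 over the 12 arrays were Ccn2 (r = 0.95), Plod2 (r = 0.94) and Slpi (r = 0.93). The lower Smoc2 probe set, 1431362_a_at, had a correlation of 0.69 with the main one and was below the filter.

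Lrig1, a membrane protein that restrains ErbB receptors and marks crypt stem cells, is read by 3 tested probe sets, and they do not follow each other. The main one, 1434210_s_at, gave 670.1, 415.1 and 462.7 in standard control and 369.6, 462.3 and 359.8 in standard TNBS. It gave 447.4, 625.6 and 750.4 in curcumin control and 667.3, 469.0 and 375.5 in curcumin TNBS. All 4 groups overlap. The TNBS difference was -0.34 ± 0.25 (adjusted p = 0.746) on the standard diet and -0.27 ± 0.25 (adjusted p = 1) on the curcumin diet, and curcumin against standard diet under TNBS was 0.30 ± 0.25 (adjusted p = 0.752). With the array set included as a term, described below, these became -0.51 ± 0.16 (adjusted p = 0.175), -0.11 ± 0.16 and 0.47 ± 0.16 (adjusted p = 0.194).

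The second Lrig1 probe set, 1449893_a_at, gave 471.4, 432.5 and 548.3 in standard control and 430.9, 366.5 and 401.7 in standard TNBS, which do not overlap. In curcumin TNBS it gave 483.2, 484.9 and 440.6, all above standard TNBS, and in curcumin control 352.1, 381.6 and 549.8. The differences were -0.26 ± 0.17 for TNBS on the standard diet (adjusted p = 0.710) and 0.23 ± 0.17 for curcumin under TNBS (adjusted p = 0.727). Over all tested probe sets, 7.56% were lower without overlap in the first of these comparisons and 10.4% higher in the second. The remaining probe set, 1419928_at, had the opposite sign in both, 0.34 ± 0.22 and -0.22 ± 0.22. Its correlation with them was -0.53 and -0.56, and theirs with each other 0.39, so the 3 probe sets together give Lrig1 no single direction.

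Axin2 is the scaffold of the complex that degrades beta-catenin and is itself induced by Wnt, which makes it a common readout of the pathway. Its main probe set gave 589.7, 588.8 and 520.5 in standard control and 336.6, 554.9 and 608.0 in standard TNBS. On the curcumin diet it gave 592.6, 727.5 and 502.9 after the control enema and 449.2, 433.0 and 393.4 after TNBS. The 3 curcumin TNBS samples lay below the 3 curcumin controls, and the standard diet groups overlap. The TNBS difference was -0.49 ± 0.21 (-0.93 to -0.04) on the curcumin diet, with an unadjusted p of 0.035 and an adjusted p of 1, and -0.22 ± 0.21 (adjusted p = 0.813) on the standard diet. Over all tested probe sets, 6.53% were lower without overlap on the curcumin diet. Averaged over both diets the difference was -0.35 ± 0.15 (-0.67 to -0.04), with an unadjusted p of 0.032 and an adjusted p of 1, and it was -0.22 and -0.60 within the 2 sets of arrays. The interaction was -0.27 ± 0.29, so the TNBS difference was not shown to differ between diets. The other Axin2 probe set, 1421341_at, was below the filter at 16.4 to 142.6 and correlated with the main one at r = -0.59.

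Sox9, a transcription factor of the crypt base that represses differentiation genes, has 2 tested probe sets on 430A. The main one, 1451538_at, gave 333.5, 296.4 and 256.0 in standard control, 269.6, 295.4 and 340.2 in standard TNBS, 243.4, 321.4 and 364.3 in curcumin control, and 272.6, 283.8 and 133.4 in curcumin TNBS. The groups overlap, and the single low signal of 133.4 is in curcumin TNBS replicate 3. The differences were 0.03 ± 0.26 for TNBS on the standard diet, -0.45 ± 0.26 for TNBS on the curcumin diet and -0.43 ± 0.26 for curcumin under TNBS (adjusted p = 0.985, 1 and 0.635). The second, 1424950_at, ran from 153.4 to 585.5 and correlated with the first at r = -0.32. Its largest difference was -0.72 ± 0.36 for curcumin with the control enema (adjusted p = 0.998), where the first gave 0.05 ± 0.26. The Sox9 probe set on 430B, 1433889_at, was below the filter, at signals of 9.2 to 155.6. In the limma fit without a filter it passed in no comparison. Its interaction there was 2.68 ± 0.77 (1.03 to 4.32, unadjusted p = 0.00359, adjusted p = 0.187), where the main probe set gave -0.49 ± 0.37. Its TNBS difference was -1.35 ± 0.54 on the standard diet and 1.33 ± 0.54 on the curcumin diet (adjusted p = 0.829 and 0.186).

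Myc drives growth and division and is a classical Wnt target of the colon epithelium. Its probe set gave 465.1, 338.4 and 333.4 in standard control, 388.0, 490.4 and 509.5 in standard TNBS, 324.4, 462.8 and 412.5 in curcumin control, and 436.3, 366.3 and 351.3 in curcumin TNBS. All groups overlap. The TNBS difference was 0.28 ± 0.19 (-0.12 to 0.69, adjusted p = 0.710) on the standard diet and -0.05 ± 0.19 on the curcumin diet, and curcumin under TNBS gave -0.25 ± 0.19 (adjusted p = 0.716). With the term for the array sets the same differences were 0.16 ± 0.12, 0.08 ± 0.12 and -0.13 ± 0.12.

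Cd44, the hyaluronan receptor, is a Wnt target on crypt base cells and is also carried by leukocytes and stromal cells. It is read by 3 tested probe sets. The main one, 1423760_at, gave 675.5, 700.5 and 554.7 in standard control, 832.8, 662.6 and 821.2 in standard TNBS, 630.5, 460.3 and 652.5 in curcumin control, and 649.0, 646.9 and 731.3 in curcumin TNBS. TNBS and control overlap on both diets. The differences for TNBS were 0.26 ± 0.16 and 0.23 ± 0.16 (adjusted p = 0.702 and 1), and the average over both diets was 0.24 ± 0.11 (-0.01 to 0.49, adjusted p = 1).

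The 430B probe set of Cd44, 1434376_at, had the smallest adjusted p of the tested member probe sets and another pattern. Adjustment was within an array type, so this does not rank it above members on 430A. For TNBS on curcumin, Axin2 on 430A had a smaller unadjusted limma p, 0.035, and a larger adjusted p. It gave 2808.0, 2315.7 and 2144.8 in standard control and 3222.3, 2347.1 and 3068.4 in standard TNBS. On the curcumin diet it gave 2469.9, 2628.0 and 3696.5 after the control enema and 2030.2, 2269.4 and 2298.5 after TNBS. The 3 curcumin TNBS samples lay below all 3 curcumin controls and below all 3 standard TNBS samples. The TNBS difference on curcumin was -0.39 ± 0.18 (unadjusted p = 0.0436, adjusted p = 0.196), the curcumin difference under TNBS -0.37 ± 0.18 (adjusted p = 0.215) and the interaction -0.63 ± 0.25 (-1.17 to -0.10, unadjusted p = 0.0232, adjusted p = 0.231). Over all tested probe sets, 6.53% and 9.89% were lower without overlap in the first 2 of these comparisons. On 430B the arrays of curcumin TNBS replicates 2 and 3 stood apart from the other 10, by more than 5 median absolute deviations on the first principal component. Without them, with 1 curcumin TNBS array left on 430B that is assumed to vary like the other groups, the interaction was -0.75 ± 0.32 (adjusted p = 0.763), and the remaining curcumin TNBS sample, 2030.2, was the lowest of all 12. The third Cd44 probe set, 1452483_a_at, gave -0.16 ± 0.31 for TNBS on curcumin and -0.53 ± 0.31 for curcumin under TNBS. The correlations among the 3 were 0.24 to 0.50. Markers of macrophages and neutrophils, 9 tested genes such as Lyz2 and Ngp, summed to 9044 to 11419 in standard TNBS and to 6532 to 7740 over the other 3 groups, and their part in the Cd44 values was not tested. The genes most like the main Cd44 probe set were Tacc3 (r = 0.89), Cdk1 (r = 0.88) and Mmp7 (r = 0.82).

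Ephb3, a receptor of the family whose gradient along the crypt keeps progenitors in place, had the largest standard error of the 8 tested main probe sets on the log2 scale. It gave 290.9, 530.6 and 436.9 in standard control, 552.6, 174.7 and 300.4 in standard TNBS, 384.0, 75.7 and 335.5 in curcumin control, and 279.4, 504.1 and 417.8 in curcumin TNBS. All groups overlap. The TNBS difference was -0.38 ± 0.52 on the standard diet and 0.79 ± 0.52 on the curcumin diet, curcumin with the control enema gave -0.85 ± 0.52, and the interaction was 1.17 ± 0.74 (-0.43 to 2.77, adjusted p = 0.618). With the term for array sets the interaction was 0.55 ± 0.57. Its single probe set therefore bounds a diet or enema difference less tightly than any of the other 7 tested genes' main probe sets.

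**Figure D3:**
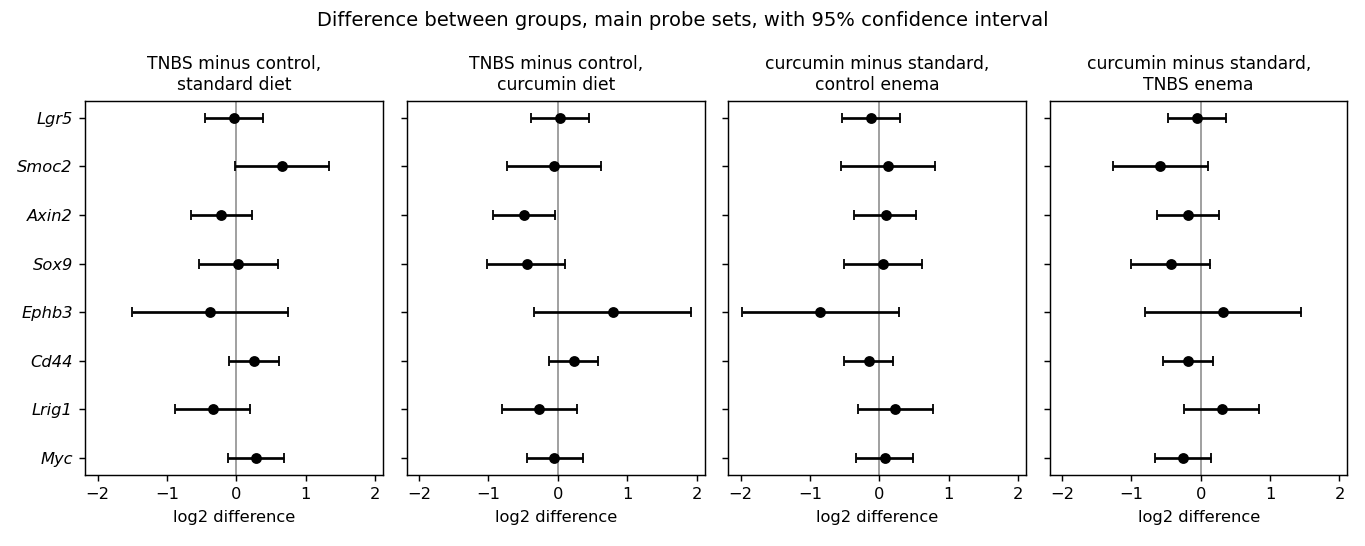
Differences between groups on the log2 scale for the main probe set of the 8 tested members, with 95% confidence intervals from limma; 3 samples a group. Only the Axin2 interval for TNBS on the curcumin diet, -0.93 to -0.04, leaves out 0, and none passed the threshold after adjustment.

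The signs of the 8 genes were mixed. For TNBS on the standard diet 4 of the 8 main probe sets were above 0, with a median of 0 and a range of -0.38 to 0.66, beside a median of -0.02 over all tested probe sets. For TNBS on the curcumin diet 3 of 8 were above 0, with a median of -0.05. For curcumin with the control enema 5 of 8 were above 0, with a median of 0.07. For curcumin under TNBS 2 of 8 were above 0, with a median of -0.18 and a range of -0.58 to 0.32, beside a median of 0.02 over all. These comparisons share groups and are not independent of each other. Over the 14 probe sets, 2 did not overlap between groups for TNBS on the standard diet, 2 for TNBS on curcumin, 0 for curcumin with the control enema and 2 for curcumin under TNBS, where 14.5%, 13.7%, 8.32% and 20.3% of all tested probe sets did not overlap. Averaged over the other factor, 0 of the 14 did not overlap for TNBS and 0 for curcumin, against 0.207% and 0.27% of all tested probe sets. Among the members, correlations over the 12 arrays ran from -0.66 for Ephb3 and Myc to 0.62 for Ephb3 and Cd44. Of the 8 pairs of tested probe sets of the same gene, 3 had a correlation below 0, and the highest was 0.5.

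The first principal component of the 430A arrays, with 32% of the variance, parts them into 2 sets of 6, which no label names, and each group has arrays in both. Of the 12 tested member probe sets on 430A, 2 did not overlap between the sets, and of all tested probe sets of 430A 12.8% did not. The mean correlation between arrays was 0.943 within and 0.912 between the sets, and 0 arrays changed set when the members were left out. Ephb3 was 75.7 to 335.5 in set 1 and 384.0 to 552.6 in set 2, without overlap, a difference of -1.03 on the log2 scale. Myc lay the other way, 412.5 to 509.5 in set 1 and 324.4 to 388.0 in set 2. The low Axin2 probe set, which was not tested, also parted, at 16.4 to 85.0 and 91.5 to 142.6. Since the sets were made from these signals, the values are a description.

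Among measures of RNA and array quality, the ratio of 3' to 5' probe sets for actin was 1.04 to 1.12 in set 1 and 1.14 to 1.24 in set 2, and the median signal was 226.7 to 253.9 and 271.1 to 284. The Gapdh ratio overlaps between them, at 0.710 to 0.874 and 0.700 to 0.796. Markers of enteric glia and neurons summed to 844 to 1009 in set 1 and 1223 to 1421 in set 2. Their part in the Ephb3 and Myc values was not tested. With a term for the sets on 430A, and the 2 outlying arrays left out of 430B, 0 of 14 member probe sets passed in any comparison, and the smallest adjusted p was 0.175, for Lrig1. Among all tested probe sets that fit called 0.236% for TNBS on the standard diet, 0.122% for curcumin under TNBS and 0.00739% or less in the other comparisons. The genes most like Myc over the 12 arrays were Ctsb (r = 0.97), Pdcd6 and Mmp2 (both r = 0.95), and within the sets these were 0.86, 0.77 and 0.86. For Ephb3 they were Tesc (r = 0.97), B2m (r = 0.94) and Acat1 (r = 0.93).

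**Figure D4:**
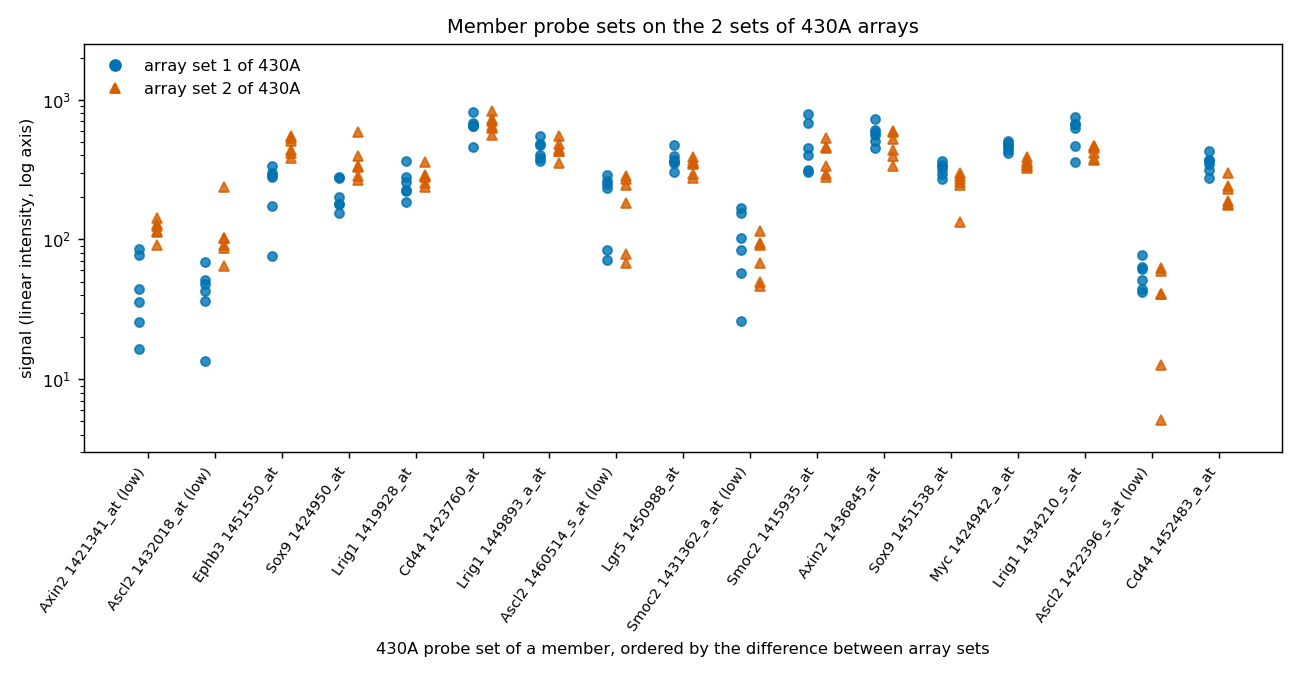
Signal (linear intensity, log axis) of the 17 member probe sets on 430A in the 2 sets of 6 arrays, ordered by the difference between the sets; "low" marks probe sets below the filter. Ephb3, Myc and the low Axin2 probe set do not overlap between the sets.

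For the other members the genes with the most similar pattern over the 12 arrays were Osbpl2, Rapgef3 and Sec14l1 for Lgr5 (r = 0.91, 0.88 and 0.84) and Kif1c, Mylk and Comtd1 for Axin2 (r = 0.93, 0.93 and 0.90). For Sox9 they were Arf3, Zdhhc3 and C1qbp (r = 0.90, 0.89 and 0.88), and for Lrig1 Mob4, Acss1 and Mtch2 (r = 0.93, 0.91 and 0.91). Each is the highest of all correlations on its array type over only 12 points and says only that the patterns are alike in these arrays.

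Among the tested member probe sets, the smallest unadjusted p in limma was that of Axin2 for TNBS over both diets and that of Cd44 for the interaction. The promoters of these 2 members are printed. Each runs from 250 bases before to 50 bases after the gene's start in RefSeq, build GRCm38.p6, and CG dinucleotides, the sites of DNA methylation, are in capitals. Axin2 lies on the plus strand at chr11:108920099-108920398 and Cd44 on the minus strand at chr2:102901616-102901915.
Axin2: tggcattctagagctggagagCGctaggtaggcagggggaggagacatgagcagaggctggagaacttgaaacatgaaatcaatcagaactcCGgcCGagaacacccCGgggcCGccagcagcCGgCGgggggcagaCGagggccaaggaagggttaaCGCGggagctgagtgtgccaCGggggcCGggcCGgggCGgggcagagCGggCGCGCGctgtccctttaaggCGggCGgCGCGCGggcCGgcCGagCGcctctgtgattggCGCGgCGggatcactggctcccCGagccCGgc
Cd44: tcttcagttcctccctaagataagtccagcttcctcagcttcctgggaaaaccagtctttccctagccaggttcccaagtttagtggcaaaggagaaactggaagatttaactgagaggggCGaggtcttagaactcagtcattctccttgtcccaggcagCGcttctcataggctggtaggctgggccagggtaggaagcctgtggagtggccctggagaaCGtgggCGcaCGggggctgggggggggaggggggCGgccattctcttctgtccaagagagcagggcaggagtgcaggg
The Axin2 promoter holds 31 CG dinucleotides and that of Cd44 holds 6, and the median over 32851 RefSeq promoters of this length is 7. RefSeq promoters were matched for 6 of the 10 genes, and the other 4 of them had 23 for Ascl2, 24 for Ephb2, 23 for Ephb3 and 35 for Lrig1. The TCF and LEF motif, searched as CTTTG followed by a pair of A or T on both strands, was in 0 of the 6 windows and in 16.9% of all promoters. This says only that these letters are not in these windows.

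The rest of the pathway was read from lists of genes, 1 probe set per gene. Of 14 other crypt stem and progenitor markers tested, 1 passed in 1 comparison. Aldh1a1, which makes retinoic acid and marks progenitor cells, rose with curcumin under TNBS. Its signals were 2873.2, 3131.3 and 2556.6 in standard TNBS and 4893.1, 5130.7 and 4937.9 in curcumin TNBS, a difference of 0.81 ± 0.11 with a limma adjusted p of 0.0172. The controls lay between, at 3915.1, 4191.3 and 4343.1 on the standard diet and 4482.1, 4454.3 and 3895.0 on curcumin, so all 3 standard TNBS samples were the lowest of the 12. The TNBS difference on the standard diet was -0.54 ± 0.11 (adjusted p = 0.0974), and with the term for array sets it was -0.52 ± 0.10, past the threshold with an adjusted p of 0.0485. The call for curcumin under TNBS was lost with quantile normalization (adjusted p = 0.0507) and without the 4 samples with low acinar sums (0.79 ± 0.13, adjusted p = 0.133). It was also lost without standard TNBS replicate 1 (adjusted p = 0.0916) or 3 (0.136) and without curcumin TNBS replicate 1 (0.0832), 2 (0.162) or 3 (0.0639), with differences of 0.73 to 0.82. For TNBS none of the 14 passed on either diet in the fit without array sets, where the median was -0.06 and -0.02.

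Of the Wnt ligands, R-spondins and secretion factors, 12 of 24 were tested and 0 passed in any comparison. Rspo2, an R-spondin made by stromal cells, gave 148.7, 218.4 and 157.8 in curcumin TNBS, against 594.0, 357.1 and 359.0 in curcumin control and 477.4, 304.6 and 468.4 in standard TNBS. Its 3 curcumin TNBS samples were the lowest of the 12. The differences were -1.22 ± 0.30 (adjusted p = 0.0673) and -1.17 ± 0.30 (adjusted p = 0.0561), and without the 2 outlying 430B arrays, where 1 curcumin TNBS array is left and is assumed to vary like the other groups, they were -1.42 ± 0.40 and -1.37 ± 0.40 (adjusted p = 0.663 and 0.489). Of the receptors, 16 of 17 were tested and 0 passed. For curcumin under TNBS, Ror2 gave -1.30 ± 0.41 and Fzd1 -0.59 ± 0.19 (adjusted p = 0.0899 and 0.0931). Both are read on 430B, and without the outlying arrays, with 1 curcumin TNBS array left, they were at -0.77 and -0.48. Of the secreted and membrane inhibitors, 11 of 17 were tested and 0 passed. Sfrp1, which binds Wnt ligands, gave 0.45 ± 0.17 for TNBS on the standard diet (adjusted p = 0.421).

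Of the intracellular genes of the pathway, 29 of 33 were tested and 0 passed, and the median difference lay between -0.05 and 0.06 in every comparison. For TNBS on the standard diet 3 were higher and 3 lower without overlap, against 6.9% and 7.56% of all tested probe sets. Among the lower was Tcf7l2, a TCF factor, at -0.46 ± 0.17 (adjusted p = 0.410). Its other probe set gave -0.88 ± 0.27 (adjusted p = 0.289), with overlap. For curcumin under TNBS they gave 0.00 ± 0.17 and 0.74 ± 0.27. Of 26 other Wnt target genes tested, 0 passed. Ppard, a nuclear receptor, gave -0.98 ± 0.22 for TNBS on curcumin (adjusted p = 0.0586), and -0.45 ± 0.25 without the outlying 430B arrays, again with 1 curcumin TNBS array. For TNBS on the standard diet Plaur, the urokinase receptor, gave 0.52 ± 0.20 and Slc12a2 -0.31 ± 0.11 (adjusted p = 0.429 and 0.392). For curcumin under TNBS Slc12a2 gave 0.39 ± 0.11, Bmp4 0.48 ± 0.15 and Ppard -0.81 ± 0.22 (adjusted p = 0.243, 0.279 and 0.066). In that comparison 11 of the 26 were above 0. The median of the 26 was 0.05 for TNBS on the standard diet and -0.13 for curcumin under TNBS.

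Of 14 genes of the crypt's response to injury, 7 were tested and 0 passed in any comparison. For TNBS on the standard diet 6 of 7 were above 0 with a median of 0.47, and 4 were higher without overlap, against 6.9% of all tested probe sets. The 9 macrophage and neutrophil markers were all above 0 in the same comparison, with a median of 0.60, and 6 were higher without overlap. Ccn2, a matricellular protein and YAP target, gave 558.1, 651.9 and 860.3 in standard control, 1369.3, 1244.4 and 2050.5 in standard TNBS, 433.5, 662.3 and 1770.7 in curcumin control and 693.2, 573.2 and 740.2 in curcumin TNBS. The differences were 1.14 ± 0.39 (adjusted p = 0.349) for TNBS on the standard diet and -1.17 ± 0.39 (adjusted p = 0.312) for curcumin under TNBS. Ereg, an EGF receptor ligand, gave 0.56 ± 0.35 and -1.08 ± 0.35 in the same comparisons (adjusted p = 0.706 and 0.305). Clu gave 0.52 ± 0.28 and -0.48 ± 0.28 (adjusted p = 0.631 and 0.617). For TNBS on the curcumin diet the main Clu probe set was at 0.69 ± 0.28 (limma unadjusted p = 0.0302) and did not pass. It was higher there without overlap, as were 7.16% of all tested probe sets. The other Clu probe sets gave 0.28 ± 0.35, 0.35 ± 0.28 and 0.89 ± 0.30 there, and of these only the last did not overlap. In that comparison 4 of the 7 list genes were above 0, with a median of 0.07. For curcumin under TNBS 1 of the 7 was above 0, with a median of -0.36. Of the 9 macrophage and neutrophil markers 0 were above 0 in that comparison, with a median of -0.57. Of these markers 7 were lower without overlap, against 9.89% of all tested probe sets. The part of these cells in the values of the list was not tested.

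Of the Notch and BMP niche genes, 19 of 25 were tested and 0 passed. Grem1, a BMP antagonist of the stroma around the crypt base, gave 378.3, 347.2 and 446.2 in standard control, 818.5, 827.4 and 1182.0 in standard TNBS, 382.4, 301.2 and 800.8 in curcumin control and 382.5, 329.2 and 385.0 in curcumin TNBS. The 3 standard TNBS samples lay above all other 9. The differences were 1.22 ± 0.28 (adjusted p = 0.141) and -1.31 ± 0.28 (adjusted p = 0.143). Bmp2 gave -0.80 ± 0.25 for TNBS on the standard diet (adjusted p = 0.301). Atoh1, which directs cells to the secretory lineage, gave -0.41 ± 0.17 in that comparison (adjusted p = 0.484), and with the term for array sets it was -0.54, past the threshold with an adjusted p of 0.0457.

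**Figure D5:**
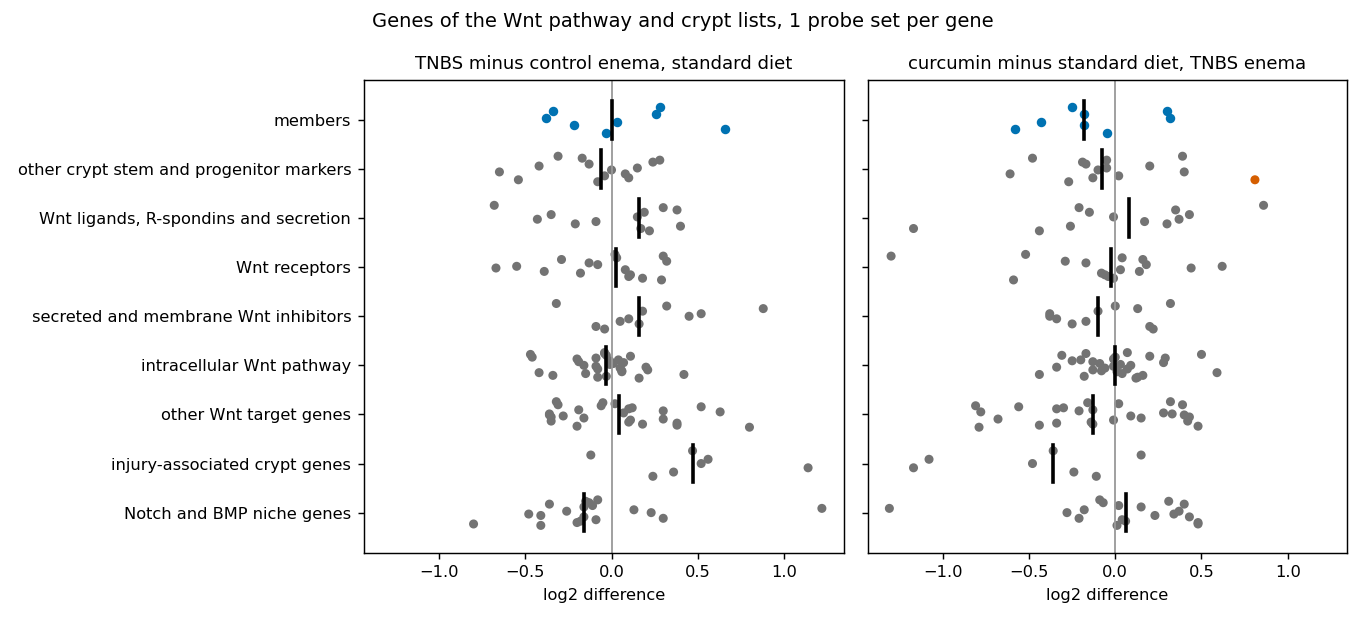
Log2 differences of the members (blue) and of the genes of 8 lists, 1 point per gene and 1 probe set per gene, for TNBS against control enema on the standard diet and for curcumin against standard diet under TNBS. Black bars are medians, and the single orange point is Aldh1a1, at 0.81 the only gene of those plotted past the threshold in the fit without array sets.

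The summed signal of 12 epithelial markers, among them Epcam, Krt8 and Vil1, ran from 78698 to 89390 over the standard diet samples. Over the curcumin samples it ran from 78735 to 97410, and 0 of the 12 passed for any comparison. This sum too is weighted to the brightest genes. For curcumin under TNBS 2 of the 12 were lower and 0 higher without overlap, against 9.89% and 10.4% of all tested probe sets, with a median of 0.01 (log2). Whether the amount of epithelium differed between groups was not tested.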

How the data were processed

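Whole colon RNA of 12 samples was measured on Affymetrix MOE430 arrays, 430A and 430B. The deposited values are linear signal intensities from GCOS, as named in the submitters' processing notes (version not given in the sources used here). The authors had scaled the arrays to a trimmed mean of about 500.1, as the values show, and nothing further was done to the scale. Intensities are relative within a probe set, and no difference in level between probe sets was tested. Level was used to filter probe sets and to choose the main one of a gene, and the marker sums add signals of different probe sets. Precision is set by the number of arrays, since there is no read depth. Probe sets were named from the platform annotation.

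A pseudocount of 16 was added and log2 taken, so that differences of dim probe sets are understated. Probe sets with a mean above the 40th percentile of their array type were kept (a signal of about 180 on 430A and 195 on 430B), 13575 and 13506. A mean per group was fitted over the 12 arrays of a type with lmFit and eBayes with an intensity trend in limma 3.58.1 (R 4.3.3), with 8 residual degrees of freedom. Two-sided p-values were adjusted by Benjamini-Hochberg within an array type. Array sets and outlying arrays came from the first principal component, and acinar samples from the largest gap in the summed acinar signals. The procedure was tested on simulated data: for TNBS on the standard diet on 430A, over 13575 probe sets, it recovered 60% of changes of 1, 93.5% of changes of 2 and 97.5% of changes of 3 log2 units, and on 430B, over 13506 probe sets, 43%, 84% and 98.5%. Each run held 200 changed probe sets and gave 5 to 10 false calls. The simulated noise was independent between probe sets, without array sets or outlying arrays, so these shares need not hold for the deposited data.

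The members and the gene lists were chosen with earlier results of these data known. All members are named; for lists, genes past the threshold, or otherwise those among the smallest p, are named. Alternatives were a pseudocount of 1 or 64, a stricter filter (60th percentile) or none, quantile and median normalization, no intensity trend, only the groups compared, a term for the array sets, other probe sets and each sample left out. The fit without the 4 samples with low acinar sums was added after the data were seen.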

Additional observations from a re-analysis of the deposited data

Results flagged for a closer look

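Cd44 1434376_at, on 430B, was set apart because the diet effect ran one way in all samples of one enema arm and the other way in all of the other. Relative to the mean of the standard diet, the 3 curcumin samples were on average 0.26 higher (log2) with the control enema and, at -0.37, lower with TNBS. The test of this difference, the limma interaction, gave -0.63 ± 0.25 with an unadjusted p of 0.0232 and an adjusted p of 0.231, so it did not pass. The main Cd44 probe set gave an interaction of -0.03 ± 0.23.

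Lrig1 1449893_a_at, on 430A, was set apart in the same way for the enema effect, which averaged -0.26 on the standard diet and 0.15 on the curcumin diet. Its interaction was 0.42 ± 0.24 with an unadjusted p of 0.11 and an adjusted p of 0.592. The other tested Lrig1 probe sets gave interactions of 0.07 ± 0.35 and -0.50 ± 0.32. With 3 samples a group, single samples were not tested for being far from the rest.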

How the results depend on the processing

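The count of members past the threshold was 0 in all 7 comparisons under each of the 9 other planned settings, with each of the 12 samples left out, and without the 4 samples with low acinar sums. For the 8 main probe sets, 6 of 490 values under the planned settings changed sign, all with a main difference of at most 0.08 (log2). With 1 sample left out, 35 of 672 changed sign, with main differences of at most 0.32. Without the 4 samples, which leaves 1 sample in curcumin control that is assumed to vary like the others, 11 of 56 did, and 19 of 56 moved by at least their standard error. For TNBS on curcumin, Ephb3 went from 0.79 to 0.03, Sox9 from -0.45 to -0.87, Lrig1 from -0.27 to -0.57 and Smoc2 from -0.05 to -0.64. Smoc2 averaged over both diets went from 0.30 to -0.05 for TNBS, and its interaction from -0.71 to -1.19.

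The counts over all probe sets, against which the members were read, depend on single samples: without curcumin TNBS replicate 1, 2733 probe sets in place of 55 passed for TNBS on curcumin and 2619 in place of 218 for curcumin under TNBS. With the array set term, 64 in place of 2 passed for TNBS on the standard diet. Median centring moved the median difference on 430B to -0.18 and -0.16 for TNBS on curcumin and curcumin under TNBS, and the calls from 16 higher and 39 lower to 9 and 88, and from 53 and 165 to 30 and 272. The cause was not tested. Aldh1a1 under TNBS kept its direction, and passed neither with median centring (adjusted p = 0.0944) nor without an intensity trend (adjusted p = 0.106). No paired analysis was possible because the samples are numbered 1 to 12 across the groups and no number is shared.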
